A study of Mus musculus with 8 samples.

Results

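Testis RNA from 8 mouse libraries was compared as 4 against 4. The libraries of the groups LPS and LPS+DHEA formed one side, called the LPS side here. Those of the groups CTRL and LPS+DHEA+Nb formed the other, called the CTRL side. Together the sides hold all 8 libraries of the study, 2 in each group. All groups were wild-type (WT) males. CTRL mice were given phosphate buffered saline. The other 3 groups were given 1 intraperitoneal dose of lipopolysaccharide (LPS), a component of the bacterial outer membrane. Of these, the LPS group had nothing else, LPS+DHEA was also given dehydroepiandrosterone (DHEA), a precursor of sex steroids, 6 h after LPS, and LPS+DHEA+Nb was given DHEA with Nb23-bi at that time. The labels name Nb23-bi without describing it. The sources used here give no strain, age, dose, collection time or number of animals per library. All p-values therefore measure only the spread between these libraries, which may be technical. The CTRL side holds a group that had LPS and DHEA, so the sides are not a single treatment against its control.

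The sides were chosen from the data. They follow the first principal component of log2 CPM (read counts scaled to a common library size), which held 17.7% of the variance. On it the CTRL libraries lay at -49.7 and -41.4, and the LPS+DHEA+Nb libraries at -16.8 and -36.5. The LPS+DHEA libraries lay at 31.6 and 27.1, and the LPS libraries at 46.6 and 39. The second component held 14.8% and set libraries of one group apart from each other, as with CTRL at 52.2 and -25.7. With every gene scaled to unit variance, 7 of the 8 libraries kept their side of 0 on the first component, and LPS+DHEA+Nb 1 moved to the positive side at 7.7. There it lay above LPS+DHEA 2, at 1.3, so the scores of the sides overlapped. A difference between the sides is therefore a description of this grouping and carries no test. The labels give 1 collection per library and no earlier sample of the same animals, so recovery was not measured, and the sides are named by their groups.

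**Figure D1:**
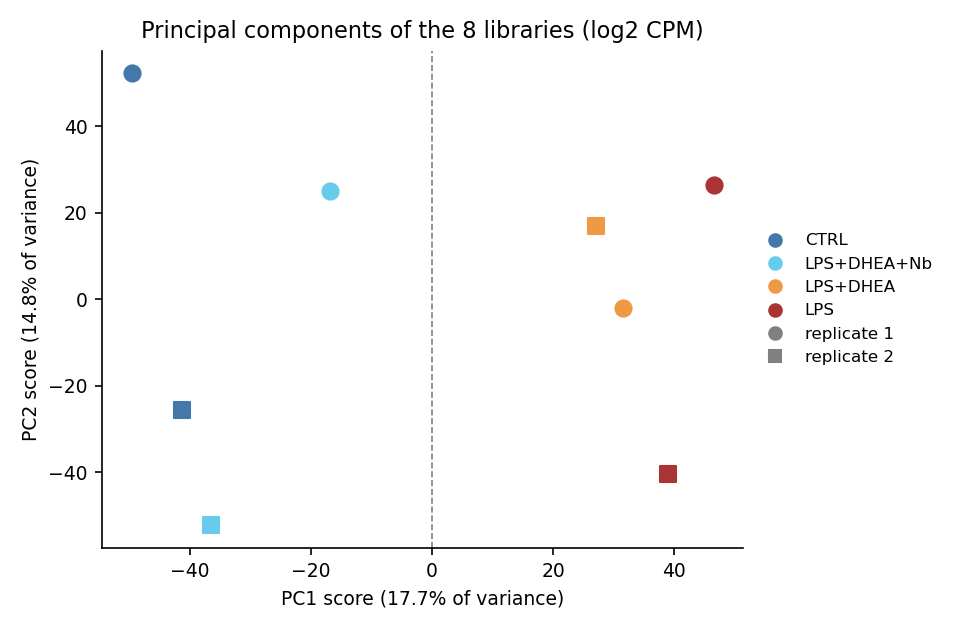
Scores of the 8 libraries on the first (x axis) and second (y axis) principal components of log2 CPM, with 1 point per library and 1 colour per group. CTRL and LPS+DHEA+Nb lie below 0 on the first component, from -49.7 to -16.8, and LPS and LPS+DHEA lie above 0, from 27.1 to 46.6.

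Genes on which both groups of a side agree were taken to be those with all 4 libraries of one side above all 4 of the other in CPM, and with an adjusted p under 0.05 for the side difference in edgeR's quasi-likelihood fit, used here only as a filter. Of 26414 genes with enough counts, 114 (0.432%) met both conditions. Of these, 98 (0.371%) were higher on the LPS side and 16 (0.0606%) were lower. Separation of the 8 libraries alone held for 812 genes (3.07%) in the higher direction and 536 (2.03%) in the lower. The fit alone called 128 genes (0.485%), 106 (0.401%) higher and 22 (0.0833%) lower. The last genes inside the threshold on p included Tpbgl, with a log2 difference of 0.48, and Tapbp, with 0.32. Just outside it lay Sema3g with 0.94 and Dag1 with 0.30. With any 1 library left out, some of the 98 no longer passed and other genes newly did, so the counts that follow understate the loss. The count of 98 thus rested in part on single libraries. It was 48 without LPS+DHEA 1, 56 without LPS 2, 62 without CTRL 1 and 63 without LPS+DHEA 2.

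LPS is sensed by Toll-like receptor 4 with its co-receptor Cd14. The signal frees the transcription factor NF-kB, which drives chemokines, adhesion molecules and its own inhibitors. Interleukin 6 and related cytokines then act through Stat3, and with the C/EBP factors they drive acute phase proteins, secreted factors that are known best from the liver and that bind iron or microbial products or inhibit proteases. In the testis, macrophages and Leydig cells lie together in the interstitium, and LPS is known to lower Leydig cell steroid synthesis.

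The promoters of some of these genes are shown because the genes were higher together and the motifs of the 3 factor families are known. The 250 bases before each RefSeq start (GRCm38.p6) were searched on both strands for the 10-base NF-kB consensus, for TTGCNNAA (C/EBP) and for TTCNNNGAA (Stat). Promoters were found for 74 of the 98 higher genes and 14 of the 16 lower genes. Capitals mark the matches in the lines that follow, each read 5′ to 3′ on the gene's own strand. The first 4 lines carry the NF-kB consensus, in class I histocompatibility genes and a chemokine.
H2-K1, chr17:34000433-34000473, minus strand: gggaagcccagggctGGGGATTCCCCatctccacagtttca
H2-D1, chr17:35262908-35262948, plus strand: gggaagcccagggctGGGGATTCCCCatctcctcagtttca
H2-Q4, chr17:35379428-35379468, plus strand: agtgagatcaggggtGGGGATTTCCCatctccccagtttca
Cxcl1, chr5:90891159-90891199, plus strand: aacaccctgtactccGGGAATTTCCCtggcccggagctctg
The next 5 carry TTGCNNAA or its reverse complement, in acute phase genes.
Saa1, chr7:46743140-46743177, minus strand: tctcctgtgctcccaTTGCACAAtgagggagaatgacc
Saa2, chr7:46751635-46751672, plus strand: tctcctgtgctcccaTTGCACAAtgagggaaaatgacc
Saa3, chr7:46715753-46715790, minus strand: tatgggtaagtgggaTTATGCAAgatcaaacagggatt
Lcn2, chr2:32387933-32387970, minus strand: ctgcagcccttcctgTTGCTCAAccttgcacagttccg
Cp, chr3:19957164-19957201, plus strand: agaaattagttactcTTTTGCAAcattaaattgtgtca
The last pair carries TTCNNNGAA.
Socs3, chr11:117969497-117969535, minus strand: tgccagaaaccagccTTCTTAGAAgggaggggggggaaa
Icam1, chr9:21015883-21015921, plus strand: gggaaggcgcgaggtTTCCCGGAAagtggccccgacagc

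The windows of H2-K1 and H2-D1 differed at 1 of 41 bases, and those of Saa1 and Saa2 at 1 of 38, as near-identical gene copies do. The NF-kB consensus was found in 15 of the 74 higher genes (20.3%), in 1 of the 14 lower genes (7.14%), and in 8.23% of all 27025 genes with a promoter. TTGCNNAA was found in 14 of the 74 (18.9%), in 2 of the 14 (14.3%) and in 10.8% of all. TTCNNNGAA was found in 8 of the 74 (10.8%), in 0 of the 14 and in 8.13% of all. The motifs overlap in part, near-identical copies count as separate genes, and a match is a run of letters, not a shown binding site.

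Among the pathway lists, acute phase genes had the largest share of agreeing members. Of 18 tested members of the list, 10 agreed in the higher direction and 0 in the lower. Over all genes 0.371% agreed in the higher direction and 0.0606% in the lower, the shares to set beside each list below. The median side difference of the acute phase list was 1.85 on the log2 scale, against 0.00 over all genes. CPM is not scaled for gene length, so levels are compared within a gene and not between genes. Saa3 (chr7:46711998-46715700), a serum amyloid A protein made by macrophages and other cells outside the liver, was at 0.895 and 1.49 CPM in CTRL and at 16.6 and 12.3 in LPS+DHEA+Nb. It was at 94.0 and 98.1 in LPS+DHEA and then at 114 and 161 in LPS. Its side difference was 4.79 (SE 0.21) on the log2 scale. All 4 libraries of the LPS side were thus far above the others, and the CTRL side was itself split, with LPS+DHEA+Nb above CTRL.

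Serpina3n, a secreted inhibitor of serine proteases, had the same order of groups. Its CPM was 4.70 and 6.91 in CTRL, 22.7 and 15.4 in LPS+DHEA+Nb, 54.2 and 50.2 in LPS+DHEA, then 74.8 and 92.2 in LPS. Cp (chr3:19957054-20009145), the copper ferroxidase ceruloplasmin, was at 8.21 and 9.03 in CTRL, 14.3 and 12.2 in LPS+DHEA+Nb, 32.2 and 34.6 in LPS+DHEA, then 43.9 and 45.7 in LPS. The side differences were 2.65 (SE 0.18) for Serpina3n and 1.86 (SE 0.08) for Cp. In both genes the 4 groups followed each other without overlap, from CTRL at the bottom to LPS at the top.

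Lcn2 (chr2:32384633-32388252), lipocalin 2, which withholds iron from bacteria by binding their siderophores, did not separate CTRL from LPS+DHEA+Nb. It was at 127 and 125 CPM in CTRL and at 139.9 and 104 in LPS+DHEA+Nb, against 224 and 250.1 in LPS+DHEA, then 327 and 314 in LPS. Lrg1, a secreted glycoprotein with leucine-rich repeats, was at 4.33 and 5.00 in CTRL, 6.42 and 6.31 in LPS+DHEA+Nb, 17.4 and 16.3 in LPS+DHEA, then 31.5 and 22.2 in LPS. Timp1, an inhibitor of matrix metalloproteinases, was at 0.863 and 1.09, 3.97 and 2.57, 7.5 and 9.5, and 10.6 and 11.0 in the same order of groups. The side differences were 1.15 (SE 0.09) for Lcn2, 1.96 (SE 0.12) for Lrg1 and 2.42 (SE 0.17) for Timp1. Saa1, Saa2, Serpina3g and Steap4, a metalloreductase, were the other agreeing members. Saa2 had no counts in LPS+DHEA+Nb, and the LPS mean of 1.07 CPM was at least 22.7-fold higher than a floor of 3 counts per library. Reads of Saa1 and Saa2 can be split or lost between the copies, so their separate values are uncertain.

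**Figure D2:**
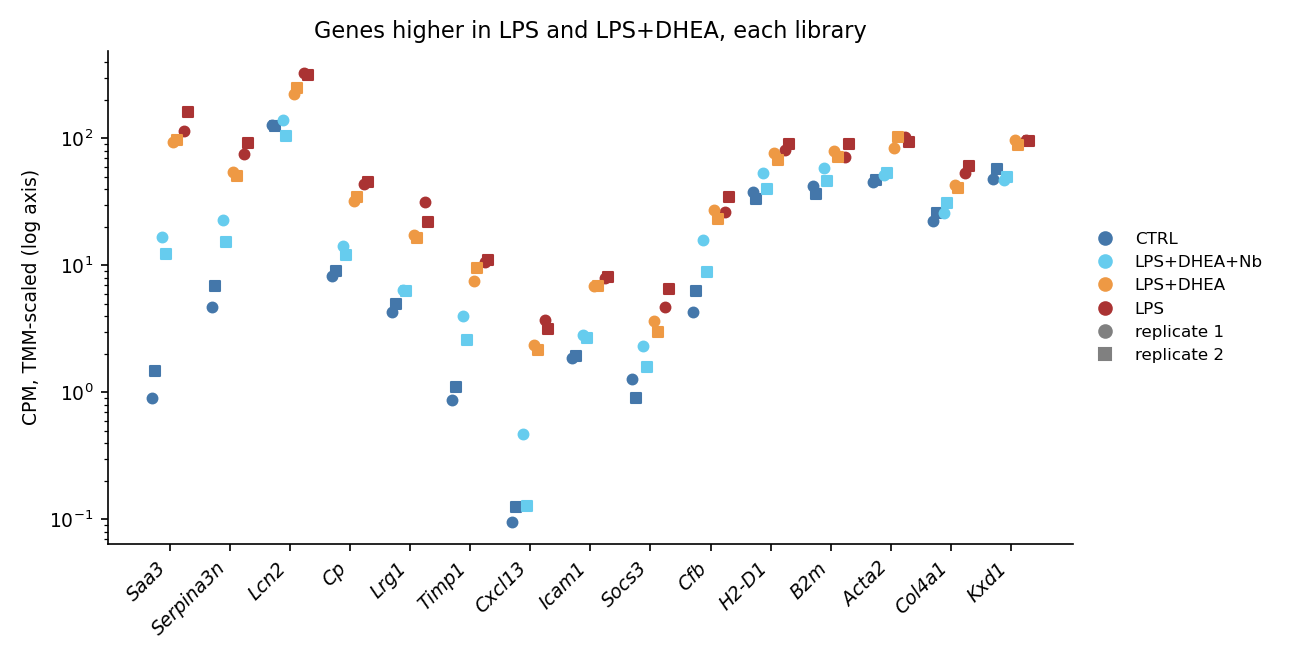
CPM per library (log axis) of genes higher on the LPS side, with 1 point per library, groups by colour and replicates by shape. Saa3 spans 0.895 to 161 CPM and Lcn2 104 to 327, and in each gene shown all 4 LPS-side points lie above all 4 CTRL-side points.

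Among chemokines and cytokines, 5 of 26 tested members agreed in the higher direction and 0 in the lower, with a median of 0.70. Cxcl13, which draws B cells, was at 0.0959 and 0.125 CPM in CTRL and at 0.472 and 0.126 in LPS+DHEA+Nb, against 2.35 and 2.17 in LPS+DHEA, then 3.70 and 3.18 in LPS. Cxcl1, which draws neutrophils, was at 0.0479 to 0.203 over the 4 CTRL-side libraries and at 0.736 to 1.60 over the LPS side. The monocyte attractants Ccl7 and Ccl12 and the T cell attractant Ccl5 were the others, with side differences of 2.15 (SE 0.31), 2.96 (SE 0.50) and 1.89 (SE 0.30). All 5 chemokines stayed under 5 CPM in every library, so their CTRL-side values rest on few counts. Ccl8, another monocyte attractant, ran the other way without passing the filter on p, with 1.22 and 3.13 CPM in CTRL, 0.442 and 2.23 in LPS+DHEA+Nb and 0.0630 to 0.250 on the LPS side.

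Targets and inhibitors of NF-kB held 4 agreeing genes of 26 tested, all higher, with a median of 0.38. In 13 of the 26 all 4 LPS-side libraries lay above the others, against 3.07% of all genes. Icam1, an adhesion molecule that leukocytes bind, was at 1.87 and 1.92 CPM in CTRL, 2.85 and 2.70 in LPS+DHEA+Nb, 6.90 and 6.93 in LPS+DHEA, then 7.92 and 8.17 in LPS. Vcam1, a second adhesion molecule, had a smaller side difference of 0.64 (SE 0.10), against 1.70 (SE 0.13) for Icam1. Tnip1, which restrains NF-kB signalling with Tnfaip3, was 0.68 (SE 0.11) higher, and Cd14 was 1.44 (SE 0.24) higher. Of the receptors and adaptors of Toll-like receptor 4 and interleukin 1, only Il1rn, the interleukin 1 receptor antagonist, agreed among the 23 tested. It had no counts in CTRL, and its LPS and LPS+DHEA means were at least 14.1-fold and 14.5-fold higher than the floor of 3 counts per library.

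Genes of the interleukin 6 and Stat3 pathway were represented by Socs3 and Cebpd among 18 tested. Socs3, which shuts down that pathway, was at 1.28 and 0.906 CPM in CTRL, 2.33 and 1.58 in LPS+DHEA+Nb, 3.66 and 2.99 in LPS+DHEA, then 4.68 and 6.46 in LPS. Cebpd, a C/EBP factor, had a side difference of 0.95 (SE 0.16). Stat3 itself, chosen after its values were seen, lay at 25.5 to 28.4 CPM on the CTRL side and at 30.8 to 37.3 on the LPS side without passing the filter on p. The side difference was 1.56 (SE 0.21) for the inhibitor Socs3 and 0.31 for the transcription factor Stat3.

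Class I antigen presentation gave 5 agreeing genes of 22 tested, all higher, with a median of 0.51. H2-D1, a class I heavy chain, was at 37.8 and 33.2 CPM in CTRL, 53.7 and 39.9 in LPS+DHEA+Nb, 77.1 and 67.2 in LPS+DHEA, then 80.9 and 90.1 in LPS. B2m, the light chain shared by these molecules, was at 42.5 and 36.8, 58.6 and 46.5, 79.2 and 70.9, and 71.0 and 90.7 in that order. The heavy chains H2-K1 and H2-Q4 had side differences of 0.53 (SE 0.08) and 1.00 (SE 0.16), against 0.95 (SE 0.10) for H2-D1. Tapbp, which loads peptides onto class I, had the smallest difference of all 98, at 0.32 (SE 0.06). The H2 heavy chains are near-identical copies, so the share of reads each received is uncertain. Of 46 interferon-stimulated genes tested, 0 agreed, with a median of 0.42. The side difference was positive in 43 of them, against 50.5% of all genes. All 8 libraries separated in the higher direction in 6, against 3.07% of all genes.

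Complement held 4 agreeing genes of 21 tested, all higher, with a median of 0.34. Cfb, factor B of the alternative pathway, was at 4.28 and 6.30 CPM in CTRL, 15.9 and 8.80 in LPS+DHEA+Nb, 27.5 and 23.1 in LPS+DHEA, then 26.4 and 34.5 in LPS. C1ra and C1s1, the proteases of the first complex, and Serping1, their inhibitor, were higher by 1.08 (SE 0.10), 0.83 (SE 0.11) and 0.75 (SE 0.10). Proteases and their inhibitor were thus on the same side. C3, the central component, separated the sides but did not pass the filter, with 15.7 and 17.5 CPM in CTRL, 53.0 and 21.9 in LPS+DHEA+Nb, 112 and 104 in LPS+DHEA, then 135 and 177 in LPS.

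Iron and copper handling held Cp, Steap4 and Fth1 among 20 tested, with a median of only 0.09. Fth1, the heavy chain of the iron store ferritin, was at 121 and 109 CPM in CTRL, 134 and 122 in LPS+DHEA+Nb, 176 and 183 in LPS+DHEA, then 240.2 and 188 in LPS.

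Some other higher genes are known from contractile and matrix-making cells, though bulk tissue does not show which cells made their RNA. Of 12 smooth muscle and peritubular markers, Acta2 and Tpm2 agreed, with a median of 0.37. The sides separated in the higher direction in 8, against 3.07% of all genes. Acta2 (chr19:34241090-34255590), smooth muscle actin, was at 45.3 and 46.7 CPM in CTRL, 51.1 and 53.0 in LPS+DHEA+Nb, 84.0 and 102 in LPS+DHEA, then 103 and 93.6 in LPS. Col4a1 and Col4a2, the chains of basement membrane collagen, were higher by 0.90 (SE 0.08) and 0.72 (SE 0.07), and Mmp14, a membrane metalloproteinase, by 0.43 (SE 0.08). These were the 3 agreeing genes of 24 tested matrix genes, whose median was 0.24. Fgf2, a fibroblast growth factor, was at 0.126 to 0.384 CPM on the CTRL side, at 2.77 and 0.638 in LPS+DHEA, then at 3.04 and 3.34 in LPS. The LPS+DHEA 2 value lay near the CTRL side, unlike that of its group mate. Of the other agreeing genes, chosen after their values were seen, Tgm2, a protein cross-linking enzyme, Pdgfra, a receptor of mesenchymal cells, and the actin-binding Cald1, Cnn3 and Actn1 were also higher, by 0.51 to 0.92.

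Some of the most separated genes have no place in these pathways. Olfr273, an olfactory receptor gene, was at 0.0313 to 0.0787 CPM on the CTRL side and at 1.91 to 3.33 on the LPS side, a log2 difference of 5.39 (SE 0.36). Kxd1, a subunit of a complex that positions lysosomes, was at 46.9 to 57.9 on the CTRL side and at 88.1 to 97.2 on the LPS side. Kxd1 overlaps Fkbp8. Since overlapping genes can exchange reads in counting, the Kxd1 value is uncertain. Of 132 genes called in the side difference or within the sides, 37 overlapped another measured gene.

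The 16 lower genes were of mixed kinds, and 4 of them, grouped after their values were seen, encode enzymes of drug and steroid metabolism. Ephx1 (chr1:180976210-181020904), microsomal epoxide hydrolase, was at 69.4 and 73.0 CPM in CTRL, 58.7 and 62.6 in LPS+DHEA+Nb, 40.8 and 42.4 in LPS+DHEA, then 41.7 and 40.9 in LPS, a side difference of -0.66 (SE 0.06). Gstm1, a glutathione transferase, was at 204 and 194, 190.5 and 172, 159 and 149, and 126 and 154 in that order. Sult1e1, which inactivates oestrogens by adding sulfate, was at 8.36 and 10.9, 7.24 and 8.52, 4.30 and 4.07, and 4.63 and 4.96. Ugt1a7c, a glucuronosyl transferase, had a side difference of -0.88 (SE 0.13), against -0.96 (SE 0.13) for Sult1e1 and -0.37 (SE 0.07) for Gstm1. Ugt1a7c overlaps Ugt1a1, Ugt1a6a and Ugt1a6b on its own strand, so its value is uncertain. Ugt1a6a did not separate the sides, at 14.2 to 19 CPM on the CTRL side and 8.6 to 18.2 on the LPS side. Gstm1 and Ephx1 were the 2 agreeing members of 22 tested antioxidant and detoxification genes, whose median was 0.04, so the list as a whole was not lower.

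Another 5 lower genes, picked after their values were seen, are known from macrophages and other myeloid cells. The macrophage and monocyte list as a whole had a median of 0.00, with 13 of 24 members positive, against 50.5% of all genes. Cx3cr1, the fractalkine receptor, was at 2.88 and 3.39 CPM in CTRL, 3.56 and 3.47 in LPS+DHEA+Nb, 1.03 and 1.64 in LPS+DHEA, then 1.35 and 1.10 in LPS. P2ry12, a purine receptor, had no counts in any of the 4 LPS-side libraries and a mean of 0.561 on the CTRL side, at least 11.7-fold higher than a floor of 3 counts per library. Cd209f, Cd209g and Fcrls, surface receptors of myeloid cells, had side differences of -1.83 (SE 0.33), -2.02 (SE 0.35) and -2.44 (SE 0.40). All of them stayed under 7 CPM. In Cd209f the LPS+DHEA+Nb libraries, at 2.41 and 6.96, differed from each other by more than CTRL (1.09 and 1.36) differed from the LPS side (0.496 to 0.892). P2ry12 lies inside Med12l on the opposite strand, and the sources used here give no strand setting for the counting. Cx3cr1 overlaps Csrnp1, Gorasp1 and Xirp1 on its own strand and Wdr48, among others, on the opposite strand, so its values are uncertain.

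**Figure D3:**
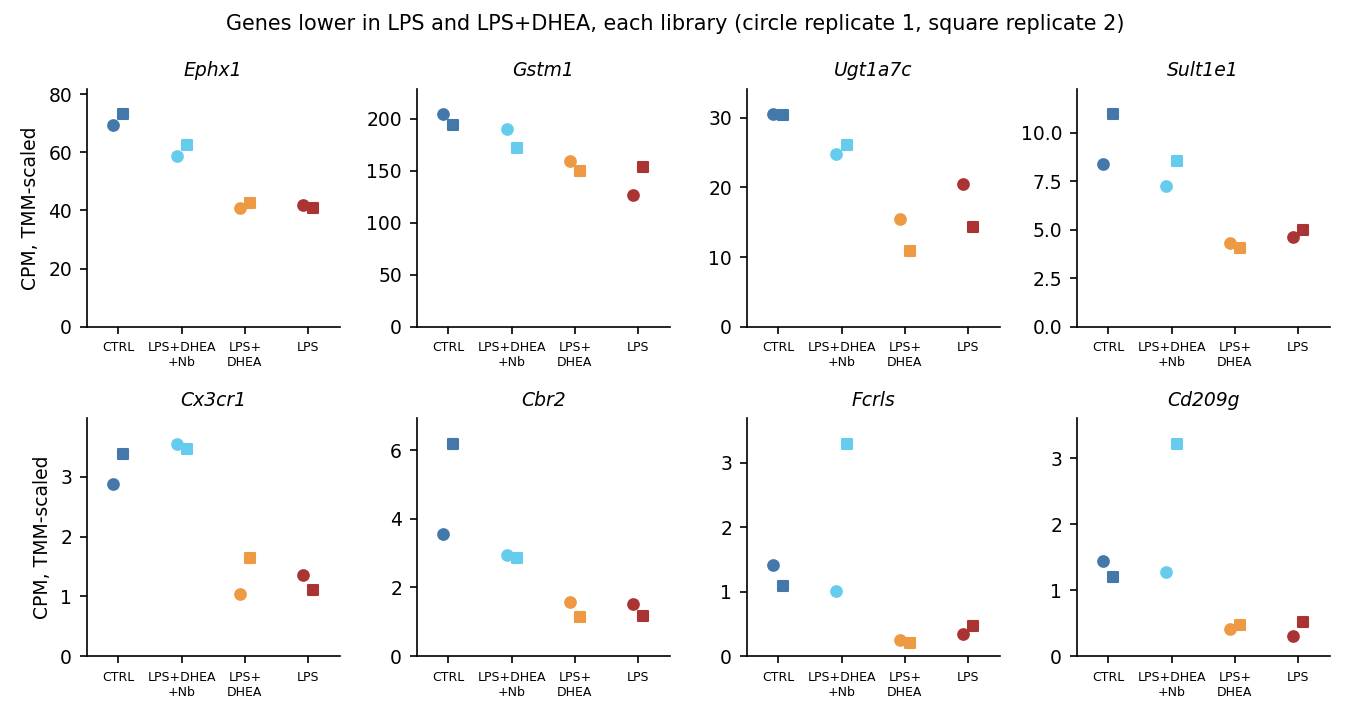
CPM per library (linear axis from 0) of 8 genes lower on the LPS side, with 1 panel per gene, 1 point per library and the groups along the x axis. Ephx1 lies at 40.8 to 42.4 CPM on the LPS side and 58.7 to 73.0 on the CTRL side, and Cx3cr1 at 1.03 to 1.64 against 2.88 to 3.56.

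Ighm, the heavy chain of immunoglobulin M, was at 2.17 and 1.77 CPM in CTRL, 0.991 and 1.39 in LPS+DHEA+Nb, 0.157 and 0 in LPS+DHEA, then 0.142 and 0.304 in LPS. Ptger1, a prostaglandin E2 receptor, Cbr2, a carbonyl reductase, Tgif2, a transcriptional repressor, and Stx5a, a Golgi syntaxin, had side differences of -2.58 (SE 0.42), -1.48 (SE 0.23), -1.13 (SE 0.20) and -0.45 (SE 0.07). Gm15142 had no counts on the LPS side and a mean of 0.998 CPM on the CTRL side, at least 20.9-fold above the floor. Spcs1, a signal peptidase subunit, lay at 130 to 138 CPM on the LPS side, at 147 and 145 in CTRL, and at 300.2 and 231 in LPS+DHEA+Nb, so its side difference came mainly from LPS+DHEA+Nb.

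Whether both groups of a side contributed was read from the 4 comparisons across the sides. These share libraries, and the genes were chosen on their sum, so the values are set side by side without a test. For the 98 higher genes the median log2 difference was 1.30 in LPS minus CTRL, 1.00 in LPS minus LPS+DHEA+Nb, 0.93 in LPS+DHEA minus CTRL and 0.74 in LPS+DHEA minus LPS+DHEA+Nb. Of the 98, edgeR called 52, 28, 30 and 8 higher in those comparisons, where it called 0.257%, 0.129%, 0.136% and 0.0568% of all genes higher. It called Cp, Lcn2, Acta2, Lrg1, Icam1, Olfr273, Kxd1 and Ifitm2 in all 4. For 40 of the 98 it called none of the 4, so their agreement rests on the 8 libraries jointly. For the 16 lower genes the medians were -1.23, -1.58, -1.22 and -1.30. There edgeR called 4, 4, 3 and 3 lower, against 0.0379%, 0.0416%, 0.0151% and 0.0303% of all genes, and Ephx1 and Gm15142 were called in all 4.

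**Figure D4:**
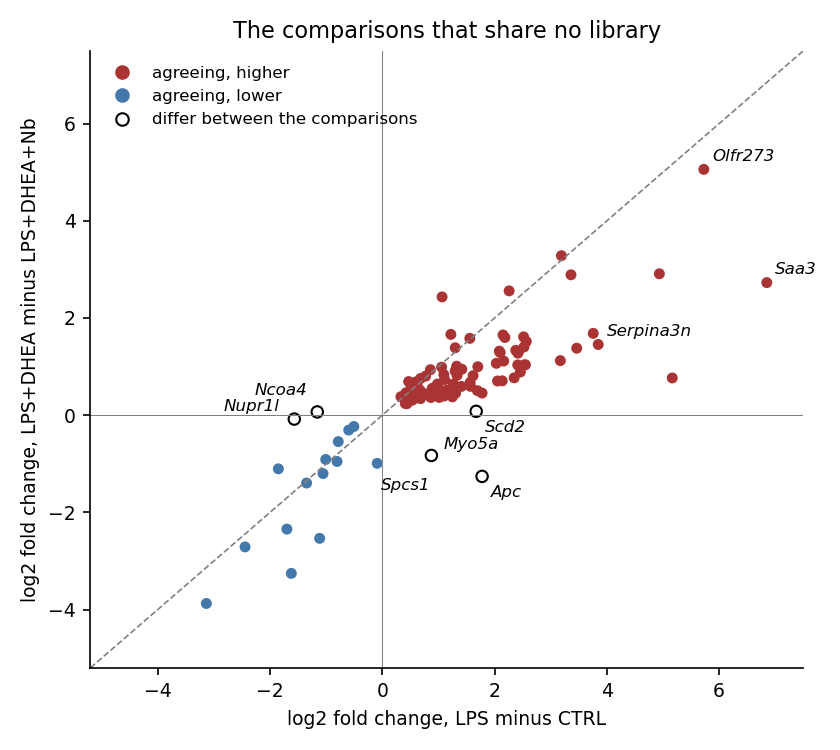
Log2 difference LPS minus CTRL (x axis) against LPS+DHEA minus LPS+DHEA+Nb (y axis), which share no library, for the 94 higher and 14 lower agreeing genes with counts in every group, with Apc, Myo5a, Scd2, Ncoa4 and Nupr1l added. The rule fixes both signs of the agreeing genes. The added genes lie off the diagonal, as with Scd2 at 1.67 on the x axis and 0.08 on the y axis.

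The differences inside the sides were tested over all genes. For the agreeing genes they are a description, because the demand that all 8 libraries separate leaves out genes in which 1 group stands apart, such as Scd2, Nupr1l and Ncoa4, and because the first component from which the sides were taken also orders the groups within each side. The counts of agreeing genes called inside the sides are therefore partly set by how the genes were chosen. In LPS+DHEA minus LPS, edgeR's quasi-likelihood test with Benjamini-Hochberg adjustment called 5 genes (0.0189%), and 0 of the 98 higher and 0 of the 16 lower genes were among them. At an unadjusted p under 0.05 there were 29 of the 98, against 927 of all 26414 genes. DESeq2 called 1 of the 98 (Igfbp4, which binds insulin-like growth factors) and 35 of all genes. The limma-voom fit called 0 of the 98 and 5 of all genes. The 98 fitted values were below 0 for 84 genes, with a median of -0.25, where 50.7% of all genes were above 0 and the median was 0.00. In 54 of the 98 both LPS+DHEA libraries lay below both LPS libraries, as they did in 15.7% of all genes. Saa3 differed by -0.52, Serpina3n by -0.68, Cp by -0.42 and Lrg1 by -0.67, and none passed the adjusted test.

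In LPS+DHEA+Nb minus CTRL, edgeR called 8 genes (0.0303%). Of the 98 higher genes it called 0, with 36 at an unadjusted p under 0.05, against 1131 of all 26414 genes. The limma-voom fit called 0 of the 98 and 7 of all genes. DESeq2 called 70 of all genes and 7 of the 98. The 7 of the 98 called by DESeq2 were Timp1, Cp, Serpina3n, Tmem176b, Ccl12, Saa3 and Cfb, all higher in LPS+DHEA+Nb. Saa3 and Ccl12 had the largest differences of the 7, at 3.60 (SE 0.31, edgeR adjusted p = 0.0656) and 3.59 (adjusted p = 0.45). Timp1 was 1.74 higher (adjusted p = 0.0732) and Serpina3n 1.71 (adjusted p = 0.239). The values were above 0 for 73 of the 98, against 50.3% of all genes, with a median of 0.23. In 48 both LPS+DHEA+Nb libraries lay above both CTRL libraries, against 16.4% of all genes. Of the 16 lower genes edgeR called Spcs1, which was 0.86 higher in LPS+DHEA+Nb (SE 0.10, adjusted p = 0.0277). Spcs1 lost that call without CTRL 1, CTRL 2, LPS 2, LPS+DHEA 1 or LPS+DHEA 2, at adjusted p from 0.0515 to 0.125, and with only the 2 groups fitted, at 0.228. Spcs1 also overlaps Glt8d1.

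**Figure D5:**
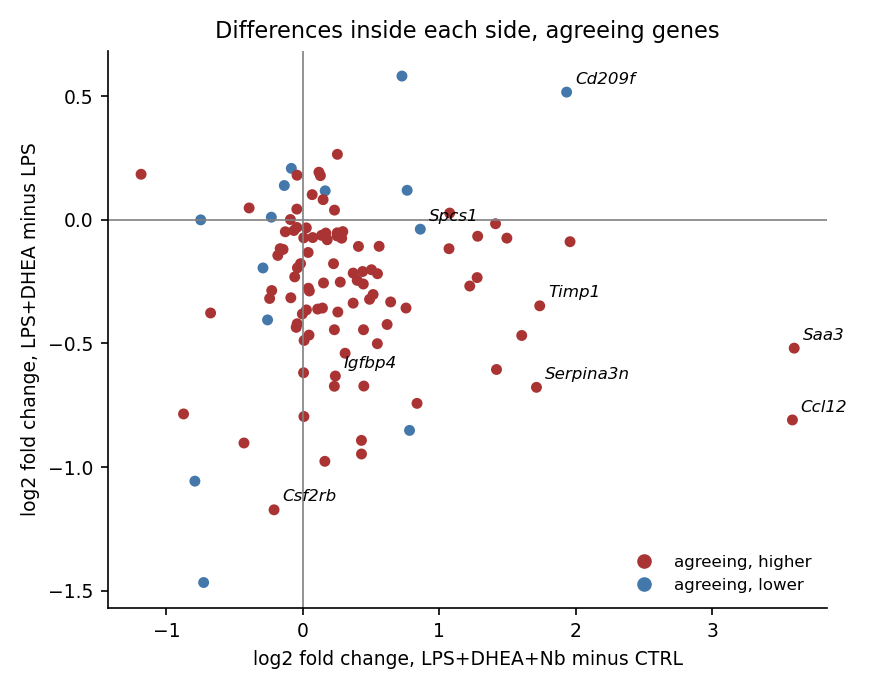
Log2 difference LPS+DHEA+Nb minus CTRL (x axis) against LPS+DHEA minus LPS (y axis) for the 94 higher (red) and 14 lower (blue) agreeing genes with counts in every group, 1 point per gene. Most red points lie right of 0 and below 0, with Saa3 farthest right at 3.60 and -0.52.

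Over all genes it was also tested whether LPS minus CTRL differed from LPS+DHEA minus LPS+DHEA+Nb. This test called 7 genes (0.0265%) and 0 of the 114 agreeing genes, a count that the separation of all 8 libraries likewise sets in part. Among the 98 higher genes 44 were at an unadjusted p under 0.05, against 1011 of all 26414 genes. DESeq2 called 10 of the 98 and 47 of all genes, and limma-voom called 0 and 7. The difference was positive for 80 of the 98, against 49.4% of all genes, with a median of 0.50.

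Apart from Spcs1, the genes called inside the sides were not agreeing genes. In LPS+DHEA minus LPS, Scd2, a fatty acid desaturase, fell by 1.74 (edgeR adjusted p = 2.17e-05), from 168 and 162 CPM in LPS to 50.0 and 48.6. Nupr1l, a stress-linked nuclear gene of the Nupr1 family, rose by 1.56 (adjusted p = 2.78e-05), from 63.6 and 55.2 to 176 and 175. Myo5a, a myosin that carries vesicles, fell by 1.07 (adjusted p = 0.0153), and Apc, a brake on Wnt signalling, fell by 1.30 (adjusted p = 0.0275). Arrb1, a beta-arrestin, rose by 1.32 (SE 0.15, adjusted p = 0.0153). Scd2 and Nupr1l in LPS stood apart from all 3 other groups, CTRL included. Leaving out 1 library ended the call for Apc (adjusted p = 0.0541 without LPS 1 and 0.101 without LPS+DHEA 1), for Myo5a (0.0534 without LPS+DHEA 1 and 0.0599 without LPS+DHEA 2) and for Arrb1 (0.0544 without LPS+DHEA 2).

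In LPS+DHEA+Nb minus CTRL, Apc rose by 1.74 (edgeR adjusted p = 0.00327), from 8.17 and 6.47 CPM to 24.9 and 23.9. Ncoa4, which delivers ferritin for breakdown, fell by 1.14 (adjusted p = 0.00209), from 123 and 148 to 60.7 and 62.3. Ncoa4 was as low in LPS and LPS+DHEA, at 60.6 to 67.5, so CTRL alone was high. Nol8, a nucleolar protein, rose by 0.59 (adjusted p = 0.0337), from 171 and 158 to 238 and 258. Nol8 lost the call without CTRL 1 (0.05), CTRL 2 (0.126) or LPS+DHEA+Nb 2 (0.0817), and with only the 2 groups fitted (0.0835). Spcs1 and Gm49380 also rose, and 1700027A15Rik, Gm28036 and Gm6351 fell. Of these, 1700027A15Rik overlaps Tnp1, an abundant spermatid gene, Gm28036 overlaps Cpne1, Nfs1 and Rbm12, and Gm49380 overlaps Gm39325 on its own strand, so their values are uncertain. Gm49380 was at 29.96 and 28.01 CPM in LPS+DHEA+Nb and at 0.543 or less elsewhere, where Gm39325 ran the other way, at 0.426 to 1.04 in LPS+DHEA+Nb, 0.272 in CTRL 1 and 30.5 to 35.9 in the remaining 5 libraries. With each of the 8 libraries left out in turn, more genes were tested, and the calls numbered 10 to 24 in LPS+DHEA minus LPS, 8 to 37 in LPS+DHEA+Nb minus CTRL and 17 to 39 in the test between the 2 comparisons.

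Some steroid enzymes of Leydig cells were lower on the LPS side without passing the filter on p, while the Leydig list as a whole was split. Of 21 tested, 1 agreed (Ldhd, a lactate dehydrogenase, higher), 5 separated the sides in the lower direction and 4 in the higher, with a median of -0.04. Over all genes 2.03% separated in the lower direction and 3.07% in the higher. Cyp17a1, which makes androgens from progestins, was at 106 and 156 CPM in CTRL, 113 and 96.3 in LPS+DHEA+Nb, 27.7 and 25.3 in LPS+DHEA, then 44.2 and 17.4 in LPS. Hsd3b1 was at 67.3 and 50.8, 66.6 and 59.7, 28.6 and 25.1, and 12.2 and 22.9, and Cyp11a1, the first enzyme of the pathway, at 81.8 and 124, 96.3 and 72.9, 35.6 and 38.0, and 60.6 and 28.8, in the same order. For Cyp17a1 and Hsd3b1 the CTRL-side libraries were all above the LPS side, with side differences of -2.03 and -1.49. Hsd17b3 and Lhcgr were the other separated lower members, and Insl3, a peptide hormone of Leydig cells, differed by only -0.07.

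Markers of several cell types differed between the sides. In bulk tissue, fewer cells of a type and less RNA per cell cannot be told apart. Summed CPM of the neutrophil list was 4.39 to 7.08 on the CTRL side and 9.32 to 13.3 on the LPS side. There 10 of 11 tested members were higher, against 50.5% of all genes, and 1, S100a8, agreed. S100a8, a calcium-binding protein abundant in neutrophils, had no counts in CTRL, and its LPS and LPS+DHEA means were at least 21.7-fold and 23.5-fold higher than the floor of 3 counts per library. Clec4e, a receptor of myeloid cells for microbial glycolipids, also had none in CTRL, and its means were at least 43.5-fold and 28.7-fold higher than that floor. The smooth muscle list summed to 491 to 521 against 576 to 615, the endothelial list (0 of 19 agreed) to 104 to 142 against 138 to 192, and the Sertoli list (0 of 22) to 1434 to 1565 against 1656 to 1757. The Leydig list summed to 1160 to 1381 on the CTRL side and 983 to 1094 on the LPS side. Macrophage sums overlapped, at 345 to 380 and 363 to 389, with 1 of 24 agreeing in each direction (Cd14 higher, Cx3cr1 lower). The spermatid list (0 of 28) summed to 35432 to 37154 against 33697 to 35499, and 2 of 13 epididymis markers were high enough to test, with Lcn5 and Lcn10 at 0. The part of these marker shifts in the agreeing genes was not tested. The glucocorticoid-responsive list held 1 of 19, Lcn2. Lists of spermatogonial, meiotic, lymphocyte, adipocyte, erythroid, clock, cholesterol, fatty acid, immediate early and stress genes held 0 agreeing genes.

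Depth was even, at 61.3 to 64.5 M counts per library, and 30142 to 30626 genes were detected. Mitochondrially encoded transcripts made up 0.89 to 1.23% of counts, and the top 10 genes 3.37 to 3.68%. Germ cell transcripts of the testis were abundant in all 8 libraries, such as Tnp1 at 1578 to 1973 CPM.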

How the data were processed

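The authors made the deposited values, 1 file per library and 1 whole number per Ensembl gene, with HISAT and featureCounts 1.5.0-p3 on GRCm38, as the submitters' processing notes list them with no role or order. The deposited values were treated as estimated counts, unscaled for library size, because multiples of 4 are over-represented among small values. Although tests for plain counts had been planned, the values were whole and entered those tests unrounded. A KAPA Stranded kit made the libraries, per the labels' protocols. The tissue label is testis, while the protocol names islets as the RNA source, and the label was followed.

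In edgeR 4.0.16, filterByExpr (count 10, total 15) kept 26414 genes. After TMM scaling, 4 group means were fitted with glmQLFit (robust) in R 4.3.3. This left 4 residual degrees of freedom, and the common biological coefficient of variation was 0.231. Benjamini-Hochberg adjustment ran over all genes tested, with calls under 0.05. A side difference is the mean of LPS and LPS+DHEA minus that of CTRL and LPS+DHEA+Nb, on the log2 scale. An SE is a log2 difference divided by the square root of F. Steps were checked on simulated data.

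Members and the 31 gene lists were chosen with earlier results of these data known. Genes were named by a rule. Among agreeing genes with a regular symbol and at least 1 CPM on the higher side, it took the 12 largest differences and the 8 smallest p per direction. It added up to 4 members per list, called genes of each test and 16 genes given whatever their result. Of these 16, Tnf, Il1b, Tlr4, Star and Prm1 had side differences of 1.13, 0.63, 0.29, -0.60 and -0.17, and none was called. Other genes named were chosen after their values were seen. Alternatives were DESeq2 1.42.0 and its size factors, limma-voom (limma 3.58.1), library size alone, other filters, counts divided by 4, 1 mean per side, a fit of the 2 groups alone, a replicate block, and each library left out. The result of 1 gene is not reported here.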

Additional observations from a re-analysis of the deposited data

Results flagged for a closer look

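Given first are genes with a regular symbol whose difference LPS minus CTRL differed from LPS+DHEA minus LPS+DHEA+Nb. The test was edgeR's quasi-likelihood test of that difference (positive where LPS minus CTRL is the larger). The difference was 3.04 for Apc (adjusted p = 0.000523). Apc was at 8.17 and 6.47 CPM in CTRL and 8.89 and 11.5 in LPS+DHEA, but at 26.4 and 23.8 in LPS and 24.9 and 23.9 in LPS+DHEA+Nb, a split that crosses the sides. Myo5a differed by 1.70 (adjusted p = 0.00289) with the same crossing, at 12.8 and 14.2 in CTRL and 12.2 and 11.5 in LPS+DHEA, against 24.7 and 24.8 in LPS and 20.1 and 21.9 in LPS+DHEA+Nb.

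The other 3 had 1 group apart from the rest. Scd2 differed by 1.59 (adjusted p = 0.000557), with 168 and 162 CPM in LPS and 46.1 to 55.7 elsewhere. Nupr1l differed by -1.49 (adjusted p = 0.000671), with 63.6 and 55.2 in LPS and 171 to 195 elsewhere. Ncoa4 differed by -1.23 (adjusted p = 0.00986), with 123 and 148 in CTRL and 60.6 to 67.5 elsewhere. These 5 calls held under all 16 alternatives run for that test. The same edgeR test also called 1700027A15Rik, at -1.60 (adjusted p = 7.23e-05), and Gm6351 (adjusted p = 0.0176), which lack a regular symbol. In both, LPS+DHEA+Nb alone was low. 1700027A15Rik was at 82.7 and 85.7 CPM there and at 207.5 to 256.7 elsewhere, and its overlap with Tnp1 leaves these values uncertain. Gm6351 had no counts there and was at 0.624 to 1.85 CPM elsewhere.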

How the results depend on the processing

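With DESeq2, 265 genes were called higher and 94 lower on the LPS side, agreeing genes numbered 204 and 55, and calls numbered 35 in LPS+DHEA minus LPS, 70 in LPS+DHEA+Nb minus CTRL and 47 in the test between the 2 comparisons across the sides. With no filter on low counts, 39 genes were called lower, 29 agreeing genes were lower, and the tests called 10, 17 and 13. With 1 mean per side 12 genes were called lower, with only the 2 groups compared LPS+DHEA minus LPS called 20, and with unit-variance scaling 7 of 8 libraries kept their side on the first component. With each library left out in turn, calls ranged from 54 to 120 higher and 21 to 43 lower, agreeing genes from 48 to 96 higher and 13 to 23 lower, the 3 tests from 10 to 24, 8 to 37 and 17 to 39, and all 8 libraries kept their side. The cause of these shifts was not tested. Each left-out library was placed on the first component of the remaining libraries, and its score was smaller in size than with all 8. CTRL lay at -9.7 and -9.5, LPS+DHEA+Nb at -4.4 and -7.6, LPS at 10.4 and 8.8, and LPS+DHEA at 8 and 7.4. With all 8 libraries the scores ran from -49.7 to -16.8 on the CTRL side and from 27.1 to 46.6 on the LPS side. Of the agreeing genes, 26 higher and 3 lower (Sult1e1, Ephx1 and Gm15142) were called under every alternative. Cd209f lost its side call under 11 of 17 alternatives, Cfb and Tgif2 under 10, and Ccl12, Gstm1, Ighm and Mmp14 under 9. Il1rn lost its call under 9 of 16, and Cd209g, Fgf2 and Tpm2 lost theirs under 8 of 17.

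With the replicate number as a block, calls numbered 90 higher and 19 lower, agreeing genes 82 and 11, and the tests 5, 8 and 8, and Apc lost its call in LPS+DHEA minus LPS (adjusted p = 0.0613), as did Spcs1 in LPS+DHEA+Nb minus CTRL (0.0537). Same-numbered libraries deviated together by correlations of only -0.033 to 0.031, so the numbers were not taken as pairs. Differences of genes with almost no counts in a group carry large errors, with an SE of 0.96 for Clec4e.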

Other observations

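Of the genes called in the side difference, 14 did not separate all 8 libraries, 8 higher and 6 lower. In several a single group set the value. Marco, a scavenger receptor of macrophages, was at 0.304 and 0.219 CPM in CTRL and at 2.60 and 6.97 in LPS+DHEA+Nb, 6.48 and 4.89 in LPS+DHEA, then 6.19 and 4.22 in LPS, so all 3 groups given LPS were above CTRL. Fpr1 and Fpr2, formyl peptide receptors of neutrophils and macrophages, had no counts in CTRL and were at 0.126 to 0.631 CPM in LPS+DHEA+Nb. Lpl, which releases fatty acids from lipoproteins, was at 9.71 and 9.37 in LPS+DHEA+Nb and at 2.70 to 4.88 elsewhere. Ptn, a growth factor, was at 0.646 and 0.704 in LPS and at 1.80 to 3.23 elsewhere.

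Hp, the haemoglobin-binding haptoglobin, separated the sides without a call, and its libraries differed within groups. It was at 0.847 and 5.25 CPM in CTRL, 3.21 and 1.58 in LPS+DHEA+Nb, 16.1 and 10.1 in LPS+DHEA, then 16.2 and 46.0 in LPS. Itgam, an integrin of monocytes and neutrophils, was at 0.448 to 2.51 on the CTRL side and at 2.81 to 10.6 on the LPS side, with LPS 2 as the lowest of that side.

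Mitochondrially encoded transcripts did not go one way. mt-Rnr1, the small ribosomal RNA of mitochondria, agreed in the higher direction, at 54.0 to 67.5 CPM on the CTRL side and 78.6 to 99.3 on the LPS side. The 13 mitochondrial protein genes had a median side difference of -0.26, with 0 of 13 positive and 0 agreeing.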
